A study of Saccharomyces cerevisiae with 18 samples.

Results

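The comparison described here is a difference of differences between a pair of budding yeast (Saccharomyces cerevisiae) strains, RDY73 and RDY234. It takes the change caused by auxin in RDY73, subtracts the change caused by auxin in RDY234, and so removes what auxin does in both strains. It uses the 12 libraries labelled with 4-thiouracil out of 18 in the series, chosen by their strain and treatment labels, with 3 libraries in each of 4 groups. For every gene the result is a log2 difference, called the strain difference below. A negative value means that the RNA fell further, or rose less, with auxin in RDY73 than in RDY234.

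The study followed newly made RNA after rapid removal of the bromodomain proteins Bdf1 and Bdf2. RDY73 carries the allele BDF1-3XV5-mAID-URA3, the allele BDF2-3XV5-mAID-kanMX and the transgene pGPD1-OsTIR1::HIS3. RDY234 carries these 3 and in addition pBDF1-BDF1::TRP1, an untagged BDF1 gene under its own promoter. All 4 groups therefore express the plant F-box protein OsTIR1 from the GPD1 promoter and carry the auxin-inducible degron (mAID) on both proteins. Cultures in rich medium received 1 mM of the auxin indole-3-acetic acid (IAA) or its solvent DMSO for 25 min, then 5 mM 4-thiouracil (4tU) for 4 min, in biological triplicate per the labels. Each strain is a single constructed genotype, and the labels give an untagged copy of BDF1 only, with BDF2 tagged in both strains. Protein levels were not measured in the files used here.

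Bdf1 and Bdf2 are the BET-family proteins of yeast. Each has paired bromodomains that bind acetylated histone tails, and Bdf1 associates with TFIID, the general factor that carries the TATA-binding protein and its associated subunits to promoters. Bdf1 is also a component of the SWR1 complex, which exchanges histone H2A for its variant H2A.Z, and Bdf2 can take over part of Bdf1's function.

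After 4tU, reads that carried 2 or more T-to-C conversions were counted as labelled and stand for new RNA, while all reads stand for total RNA. Across the 12 libraries there were 4177363 to 8541751 S. cerevisiae reads, of which 2.28% to 7.65% were labelled (103348 to 574103 reads). Labelled Schizosaccharomyces pombe cells added as a spike-in gave 8710 to 17677 labelled reads per library. A scaled labelled read is a labelled count divided by the labelled S. pombe reads of its library and multiplied by their mean over the 12 libraries. This scale keeps a change shared by all genes. The second scale, over S. cerevisiae genes, gives each gene's change relative to the others. BDF1 held 97.6 ± 12.6 scaled labelled reads in the DMSO group of RDY73 against 466 ± 13.5 in that of RDY234 (SD, n = 3), and TRP1, the marker of the added copy, 1.02 ± 1.76 against 52.6 ± 7.46. Over all tested genes the median log2 difference between these groups, RDY73 minus RDY234, was −1.13, or 2.2-fold. How far the tag and marker on BDF1 change the reads counted for it was not tested. In bulk samples fewer cells and less RNA per cell cannot be told apart.

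New RNA fell with IAA in RDY73 far more than in RDY234, for most genes. Of 5195 genes tested, 3854 (74.2%) had a lower strain difference and 12 (0.231%) a higher one on the S. pombe scale (edgeR quasi-likelihood test, Benjamini-Hochberg adjusted p under 0.05). The median strain difference was −1.82, or 3.52-fold, with quartiles of −2.51 and −1.10, and the tails beyond which 5% of genes lay on either side began at −3.97 and −0.16. In RDY73 alone the median change was −1.97, with 83.9% of genes lower and 0.385% higher. In RDY234 it was −0.12, with 1 gene lower, TIS11, and 1 higher, PDR12 (0.0192% each), and 245 genes at an unadjusted p under 0.05. The TIS11 strain difference moved from −0.44 to −1.12 without RDY234 DMSO replicate B, so its change in RDY234 depended on that library. Among all tested genes, 235 had a 95% interval that lay within 1 log2 unit of 0.

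Genes could enter the test through RDY234 alone, because 10 labelled reads in 3 libraries sufficed. Among the 1211 genes with at least 10 labelled reads in all 12 libraries, 781 (64.5%) were lower and 7 higher, with a median of −0.98. The strains were also unequal before auxin. With DMSO, RDY73 had less new RNA than RDY234 for 4131 genes (79.5%) and more for 16 (0.308%), with a median log2 difference of −1.13. Over S. cerevisiae genes the same contrast gave 153 lower and 293 higher, with a median of −0.01. In total RNA on the S. pombe scale, 4340 of 6046 genes were lower and 165 higher, with a median of −0.64. The labelled share of S. cerevisiae reads does not use the spike-in. With DMSO it was 3.76% to 4.38% in RDY73 and 7.17% to 7.41% in RDY234. That of S. pombe reads was 2.14% to 2.25% and 2.34% to 2.56%. Whether the ratio of spike-in to yeast cells was equal in the strains was not tested. With IAA, on the S. pombe scale, the median difference between strains in new RNA was −3.04. The part of that earlier gap in the strain difference was not tested.

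**Figure D1:**
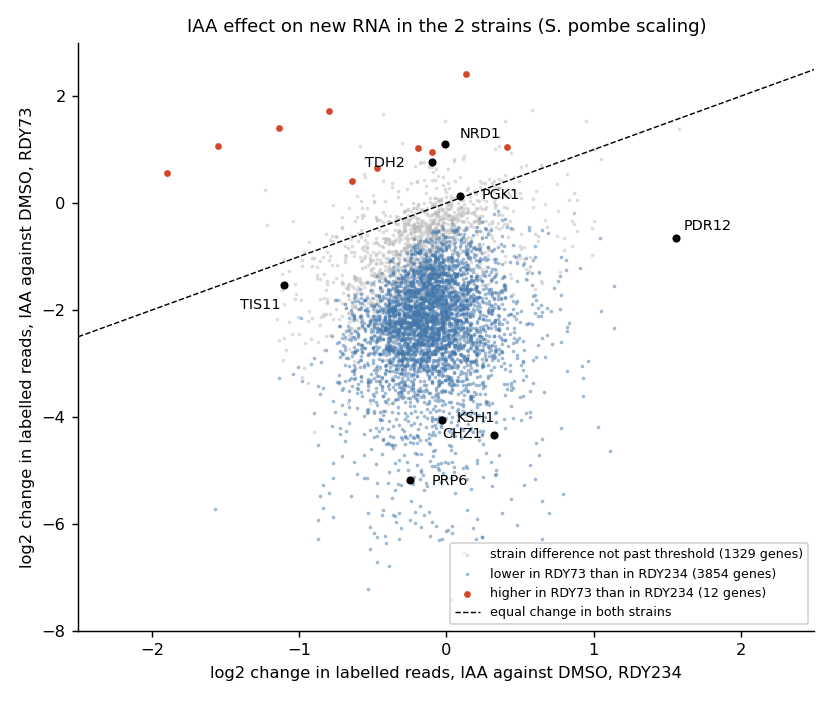
Log2 change in scaled labelled reads with IAA against DMSO, in RDY234 (horizontal axis) and RDY73 (vertical axis), for 5195 genes, 1 point a gene. Points on the dashed line changed equally in both strains; 3854 genes coloured blue lay below it past the threshold and 12 coloured red above it, and the black points are named genes.

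In new RNA the changes in the strains were only weakly correlated from gene to gene. Across 5195 genes, which are not independent replicates, Pearson's r between the RDY73 and RDY234 changes was 0.11 and Spearman's rho 0.12, and the strains share no library. In total RNA, over 6046 genes, these were 0.27 and 0.26. The RDY234 changes in new RNA were small beside their error (quartiles −0.30 and 0.05, median SE 0.31). A low correlation therefore cannot show that the responses were unrelated. When genes were divided into quintiles by their change in RDY73, from the most to the least lowered, the median change in RDY234 was −0.15, −0.16, −0.15, −0.12 and −0.06.

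By rule, the 8 most negative strain differences were taken from 1417 genes with at least 30 scaled labelled reads as the mean of both DMSO groups or of both IAA groups, no overlap with a neighbouring window and few multimapped reads. They were PRP6, CHZ1, TRS33, YTA6, MRPL33, KSH1, BIL1 and CSE4, with strain differences from −4.93 to −3.93. Their scaled labelled reads in RDY73 with IAA averaged 1.19 to 2.94, so each of these values rests on a handful of reads, and genes outside these limits had lower values still, down to −7.46. All 8 passed the threshold under each alternative that could be fitted to them, which leaves out the filter of 10 reads in every library. Their sizes were less certain. With reads of 1 conversion counted, the values ran from −3.48 for PRP6 to −2.37 for YTA6, and relative to S. cerevisiae genes from −3.47 for PRP6 to −2.45 for BIL1 and CSE4. Without RDY73 IAA replicate C, CSE4 went to −5.40 and TRS33 to −5.02, since that library held 4 of the 5 labelled CSE4 reads of its group and 5 of the 8 of TRS33.

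PRP6 (YBR055C, chrII:344602-347301, minus strand) encodes a protein of the U4/U6-U5 snRNP that enters the spliceosome. Its scaled labelled reads were 43.2, 41.1 and 58.4 in RDY73 with DMSO, 1.02, 1.67 and 0.87 in RDY73 with IAA, 121, 114 and 117 in RDY234 with DMSO, and 96.4, 81 and 121 in RDY234 with IAA. The 3 RDY73 libraries with IAA were far below all the others, with 1, 2 and 1 labelled reads before scaling, and the RDY234 groups overlapped. The strain difference was −4.93 ± 0.56 (SE, adjusted p = 3.7e-16), with a 95% interval of −6.02 to −3.84.

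CHZ1 (YER030W, chrV:213437-213898, plus strand) encodes a chaperone of the histone variant H2A.Z, the variant that SWR1 deposits. It had 22.1, 44.2 and 34.4 scaled labelled reads in RDY73 with DMSO and 2.04, 0.836 and 1.74 with IAA. In RDY234 it had 73.2, 75.7 and 81.5 with DMSO and 106, 96 and 85.7 with IAA. The RDY73 groups were apart by more than their spread, whereas in RDY234 the IAA libraries lay above the DMSO libraries, by an amount short of the threshold (log2 change 0.32 ± 0.24, adjusted p = 0.977). The strain difference was −4.66 ± 0.57 (adjusted p = 3.57e-14). In total RNA it was −1.31 ± 0.18, near the median of all tested genes (−1.10). Relative to other genes the total RNA value was −0.31 and did not pass (edgeR, adjusted p = 0.069).

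MRPL33 (YMR286W, chrXIII:841942-842202, plus strand), a protein of the large mitochondrial ribosomal subunit, went from 55.8, 44.2 and 51.1 to 2.04, 4.18 and 2.61 scaled labelled reads in RDY73. In RDY234 it held 61.2, 63.4 and 76.4 with DMSO and 86.7, 54 and 61.5 with IAA. Only the RDY73 groups were apart, and the RDY234 groups overlapped. The strain difference was −4.03 ± 0.50 (adjusted p = 1.45e-13).

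KSH1 (YNL024C-A, chrXIV:586602-586820, minus strand) encodes a small protein needed for early steps of secretion. It started from like levels in the strains, at 37.9, 39.6 and 33.3 scaled labelled reads in RDY73 and 32.4, 43.5 and 42 in RDY234 with DMSO. With IAA these became 2.04, 1.67 and 2.61 in RDY73 and 54.5, 33.8 and 27.9 in RDY234. The strain difference of −4.01 ± 0.61 (adjusted p = 1.19e-09) came with DMSO values that overlapped between the strains. The other genes of the group were TRS33, a subunit of the TRAPP vesicle-tethering complex (−4.27 ± 0.52), YTA6, a putative AAA ATPase (−4.08 ± 0.62), BIL1, a partner of the actin regulator Bud6 (−3.96 ± 0.62), and CSE4, the histone H3 variant of the centromere (−3.93 ± 0.64).

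At the other end stood genes with strain differences near 0. The 6 genes with the narrowest bound on their strain difference were YGL007C-A, EGT2, ADH1, PGK1, TPI1 and PDC1, from −0.05 to 0.04 on the S. pombe scale. Relative to other S. cerevisiae genes all 6 were higher, at 1.55 to 1.64. Of the 1417 eligible genes, 173 had a 95% interval within 1 log2 unit of 0. ADH1, PGK1, TPI1 and PDC1 encode alcohol dehydrogenase, phosphoglycerate kinase, triose-phosphate isomerase and pyruvate decarboxylase of the fermentation pathway, EGT2 encodes a cell-wall protein of mother and daughter separation, and YGL007C-A is uncharacterized.

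ADH1 (YOL086C, chrXV:159548-160594, minus strand) had 929, 1041 and 728 scaled labelled reads in RDY73 with DMSO and 710, 955 and 936 with IAA. In RDY234 it had 1291, 1241 and 1454 with DMSO and 1115, 1310 and 1350 with IAA. The DMSO and IAA libraries overlapped within each strain, while all 6 RDY73 libraries lay below all 6 of RDY234. The strain difference was 0.03 ± 0.19 (adjusted p = 0.893), with a 95% interval of −0.34 to 0.39. EGT2 (YNL327W, chrXIV:24048-27173, plus strand) had 352, 457 and 486 and then 351, 419 and 395 scaled labelled reads in RDY73, against 1003, 948 and 976 and then 843, 902 and 891 in RDY234. Its strain difference was 0.00 ± 0.20, with a 95% interval of −0.39 to 0.39. Background was estimated for each gene. The fraction of its reads with at least 2 conversions, in the same strain's libraries without 4tU, was multiplied by its total reads. This estimate equalled 10.1% of the labelled reads of ADH1 in RDY73 with IAA and 1.77% of those of EGT2. The share was 19.8% for YGL007C-A, 10.8% for PGK1, 10.2% for PDC1 and 5% for TPI1. Its median over all tested genes was 2.45%.

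Of the 12 genes with a higher strain difference, 3 met the rule for named genes. NRD1 (YNL251C, chrXIV:172588-174315, minus strand) encodes an RNA-binding protein that acts in terminating short noncoding transcripts. Its scaled labelled reads rose from 31.6, 41.1 and 43.8 to 69.5, 86.1 and 93.9 in RDY73 and were 60, 41.6 and 67.5 with DMSO and 45.8, 49.5 and 70.8 with IAA in RDY234. The RDY73 groups did not overlap and the RDY234 groups did. The strain difference was 1.12 ± 0.36 (adjusted p = 0.0034) by edgeR, or 2.17-fold, and 1.71 when reads with 1 conversion were counted.

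TDH2 (YJR009C, chrX:453683-454681, minus strand) encodes a glyceraldehyde-3-phosphate dehydrogenase. It went from 323, 359 and 305 to 484, 589 and 601 scaled labelled reads in RDY73 and from 369, 414 and 392 to 358, 375 and 361 in RDY234. All RDY73 libraries with IAA were above every other library, and the strain difference was 0.87 ± 0.21 (adjusted p = 0.000101). By the measure given for ADH1, background equalled 12.7% of the labelled TDH2 reads in RDY73 with IAA. TDH2 has near-identical copies in TDH1 and TDH3, and ENO1 one in ENO2, so reads could be split between copies, although 0.247% of the TDH2 reads and 0.59% of the ENO1 reads were multimapped.

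ENO1 (YGR254W, chrVII:1000927-1002240, plus strand), an enolase, rose from 92.6, 88.3 and 68.8 to 128, 186 and 197 in RDY73 and went from 66, 65.3 and 66.2 to 84.7, 84.8 and 92.2 in RDY234, so IAA libraries were above DMSO libraries in both strains. Its strain difference of 0.64 ± 0.30 (adjusted p = 0.0431) was not stable. It missed the threshold without RDY234 DMSO replicate A, B or C, RDY234 IAA replicate A or B, RDY73 DMSO replicate C, or RDY73 IAA replicate B or C, with adjusted p up to 0.131. The other 9 genes, each outside the rule and named after their values were seen, were SER3, PRY1, MNN14, HBT1, SNR61, YHR140W, YFL002W-A, YPR158C-C and YNCD0003W. SER3, the first enzyme of serine synthesis, had the best-supported value among them (1.21 ± 0.30, adjusted p = 0.000221), but its window overlaps a neighbour's. The count of 12 was 7 without RDY234 DMSO replicate A, 5 without replicate B of that group and 7 without RDY73 IAA replicate C.

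**Figure D2:**
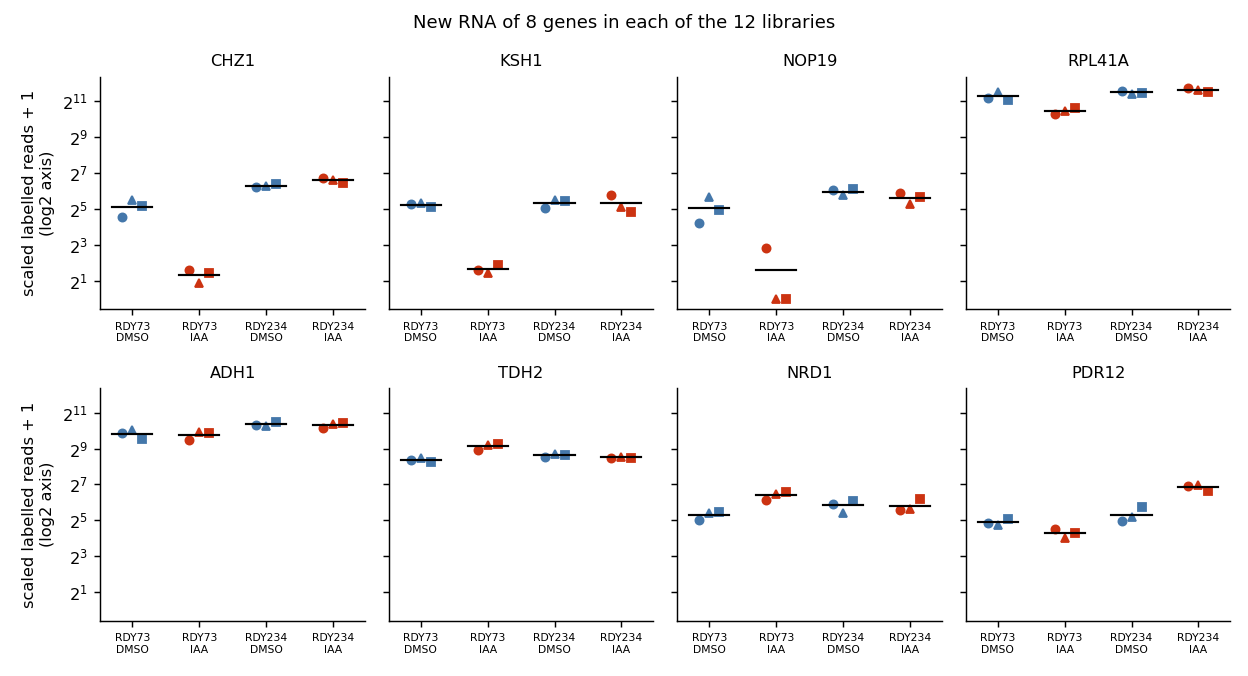
Scaled labelled reads plus 1, on a log2 axis, for 8 genes in each of the 12 libraries. Circles, triangles and squares are replicates A, B and C, blue for DMSO and red for IAA, and lines are group means; CHZ1, KSH1 and NOP19 drop in RDY73 with IAA alone, the treatments overlap for ADH1, TDH2 and NRD1 have their highest group mean there, and PDR12 is highest in RDY234 with IAA.

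The sequences upstream of 8 of these genes are shown because the share of promoters with a TATA box differed between groups of genes, as given further on. Each line gives the reference sequence (R64, RefSeq) from base 250 to base 101 before the annotated gene start, 5′ to 3′ on the gene's strand, with matches to the TATA box in capitals. The TATA box was searched as TATA, then A or T, A, A or T, and A or G, and 36.4% of 5994 promoters of 250 bases held a match on either strand. TDH2, ENO1, ADH1, PDC1 and EGT2 were chosen from the least lowered and the raised genes because they hold one, 114 to 146 bases before the gene start. CHZ1, MRPL33 and KSH1, from the most lowered genes, were chosen because they hold none in 250 bases. Over all the genes named so far, 4 of the 8 most lowered hold a match, PRP6, TRS33, BIL1 and CSE4, and 6 of the 9 least changed or raised do, with none in TPI1, NRD1 and YGL007C-A, so the printed set was picked by the match and does not stand for all.
TDH2 (chrX:454782-454931, minus strand): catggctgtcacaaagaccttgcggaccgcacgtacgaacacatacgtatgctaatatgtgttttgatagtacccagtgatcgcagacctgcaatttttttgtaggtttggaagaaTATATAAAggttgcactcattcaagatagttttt
ENO1 (chrVII:1000677-1000826, plus strand): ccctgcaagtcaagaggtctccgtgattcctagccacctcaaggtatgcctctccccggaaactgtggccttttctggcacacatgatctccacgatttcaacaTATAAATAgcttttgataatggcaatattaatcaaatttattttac
ADH1 (chrXV:160695-160844, minus strand): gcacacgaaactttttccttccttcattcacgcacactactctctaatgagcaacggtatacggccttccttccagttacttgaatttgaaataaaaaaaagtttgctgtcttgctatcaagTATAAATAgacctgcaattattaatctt
PDC1 (chrXII:234182-234331, minus strand): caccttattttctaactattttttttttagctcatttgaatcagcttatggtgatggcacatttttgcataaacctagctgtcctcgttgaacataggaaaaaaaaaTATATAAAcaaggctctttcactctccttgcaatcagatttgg
EGT2 (chrXIV:23798-23947, plus strand): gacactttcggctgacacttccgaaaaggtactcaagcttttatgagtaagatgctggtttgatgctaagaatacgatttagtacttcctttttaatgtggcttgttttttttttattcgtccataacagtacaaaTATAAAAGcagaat
CHZ1 (chrV:213187-213336, plus strand): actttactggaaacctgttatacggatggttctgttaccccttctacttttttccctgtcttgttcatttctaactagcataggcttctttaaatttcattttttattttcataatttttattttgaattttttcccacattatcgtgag
MRPL33 (chrXIII:841692-841841, plus strand): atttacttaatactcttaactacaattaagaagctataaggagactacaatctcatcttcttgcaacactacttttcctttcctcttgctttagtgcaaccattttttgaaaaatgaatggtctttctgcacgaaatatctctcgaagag
KSH1 (chrXIV:586921-587070, minus strand): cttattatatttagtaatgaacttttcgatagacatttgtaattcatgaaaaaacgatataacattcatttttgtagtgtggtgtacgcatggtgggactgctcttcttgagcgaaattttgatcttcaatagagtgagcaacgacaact

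Relative to other S. cerevisiae genes, the strain differences spread to both sides. On that scale 347 genes (6.68%) were lower and 603 (11.6%) higher, the median was −0.27, and the split moved from 0.31% to 63.5% higher among the calls. All 347 lower genes were also lower on the S. pombe scale, and of the 603 higher genes 155 were lower there. Among the 1417 eligible genes, the 6 most negative were again PRP6, CHZ1, TRS33, YTA6, MRPL33 and KSH1 (−3.47 to −2.50). The 6 most positive eligible genes were NRD1 (2.69), TDH2 (2.45), HRP1 (2.38), ENO1 (2.21), SNR48 (2.15) and ZWF1 (2.04).

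HRP1 (YOL123W, chrXV:87844-89448, plus strand) encodes a subunit of cleavage factor I, which acts in 3′ end formation of messenger RNA. On the S. pombe scale it had 24.2, 44.2 and 28.1 scaled labelled reads in RDY73 with DMSO and 54.1, 47.7 and 47.8 with IAA, against 37.2, 52 and 34.4 and then 45.8, 32.3 and 38.2 in RDY234. The RDY73 libraries with IAA were above those with DMSO, while the RDY234 groups overlapped, and the S. pombe-scaled strain difference of 0.78 ± 0.41 did not pass (adjusted p = 0.0738). For ZWF1, the first enzyme of the pentose phosphate pathway, the relative value was 2.04 and the S. pombe-scaled value 0.46 ± 0.30 (adjusted p = 0.153), and for the snoRNA SNR48 these were 2.15 and 0.58 ± 0.45 (adjusted p = 0.228).

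Gene lists were described next, on the S. pombe scale unless stated, against the 74.2% of all tested genes that were lower and the median of −1.82. Spliceosome proteins had the lowest median of the lists (−2.44), with 58 of 60 genes lower and strain differences from −4.93 to −1.06. Their summed scaled labelled reads were 1834, 2200 and 1861 with DMSO and 357, 355 and 411 with IAA in RDY73, and 4560, 4350 and 4661 and then 3929, 3952 and 4258 in RDY234. The sums did not overlap between treatments in either strain, with a much wider gap in RDY73. The Sm-like protein gene LSM7 had −2.65 ± 0.34 and SNU13, a protein of the U4/U6 snRNP and of box C/D snoRNPs, had −1.06 ± 0.26.

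Mediator, which links activators to RNA polymerase II, had a median of −2.34, with 20 of 23 genes lower. The SAGA coactivator had −2.33 (14 of 14 lower), the NuA4 and SWR1 chromatin complexes −2.28 (18 of 19), and TFIID with the TATA-binding protein −2.13 (14 of 15). The gene of the TATA-binding protein itself, SPT15, had −1.46 ± 0.30 (adjusted p = 9.56e-06) and TAF11 of TFIID −1.59 ± 0.24 (adjusted p = 9.52e-10). The SAGA genes SPT7 and NGG1 had −2.03 ± 0.39 and −2.43 ± 0.48, MED2 of Mediator −1.91 ± 0.35, and ESA1, the catalytic subunit of NuA4, −2.02 ± 0.31. RNA polymerase II subunits were nearer the general median at −1.72 (11 of 12 lower), with the largest subunit RPO21 at −1.08 ± 0.28. RNA polymerase I and III subunits stood at −1.87 (18 of 19), and elongation factors at −1.87 (16 of 18), among them the histone chaperone SPT6 at −1.71 ± 0.26. Relative to other genes, where 6.68% of all tested genes were lower, 4 of 19 were lower for NuA4 and SWR1, 3 of 19 for RNA polymerases I and III, 2 of 23 for Mediator, 2 of 14 for SAGA, 2 of 18 for elongation factors, 1 of 15 for TFIID and 0 of 12 for RNA polymerase II, which had 1 higher.

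Mitochondrial ribosomal proteins were all lower, 68 of 68, with a median of −2.24. On the relative scale 14 were also lower, against 6.68% of all tested genes. Cytosolic ribosomal proteins differed from them. New RNA was lower for 135 of 137, but with a median of −1.15. Relative to other genes, where 11.6% of all tested genes were higher, 52 were higher and 0 lower. RPL41A, a protein of the large subunit, went from 2305, 2937 and 2182 to 1237, 1410 and 1595 scaled labelled reads in RDY73 and from 3070, 2757 and 2848 to 3468, 3123 and 2910 in RDY234. RDY73 libraries with IAA lay below all others, and the strain difference was −0.94 ± 0.18 (adjusted p = 9.18e-07) on the S. pombe scale and 0.65 relative to other genes. Its near-identical copy RPL41B can share its reads.

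Ribosome biogenesis genes stood at −1.77 (97 of 101 lower), with NOC2, needed for large-subunit export, at −2.04 ± 0.22 and RLP7, needed for large-subunit assembly, at −1.53 ± 0.20. Proteasome subunits were all lower (32 of 32, median −1.79), as were aminoacyl tRNA synthetases (20 of 20, median −1.48). Translation factors stood at −1.58 (34 of 37 lower), where the abundant elongation factor gene TEF1 had −0.33 ± 0.19 (adjusted p = 0.102) and YEF3 −0.66 ± 0.19 (adjusted p = 0.00143). The YEF3 call was lost when reads with 1 conversion were counted (−0.32, adjusted p = 0.108). Under scaling over S. cerevisiae genes, where 6.68% of all tested genes were lower and 11.6% higher, 8 of 101 ribosome biogenesis genes were lower and 4 higher. On that scale 1 of 32 proteasome genes was lower, 8 of 37 translation factors were higher, and 1 of 20 tRNA synthetases was lower and 1 higher.

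Glycolysis and fermentation genes had the highest median of the lists. Of 22 tested, 1 was lower and 2 were higher, with a median of 0.02 on the S. pombe scale. Relative to other genes, where 11.6% of all tested genes were higher, 20 were higher and 0 lower (median 1.61). Their summed scaled labelled reads were 9562, 11149 and 8557 with DMSO and 8608, 10518 and 10679 with IAA in RDY73, and 14142, 14247 and 15676 and then 13938, 13904 and 15526 in RDY234. The treatments overlapped within both strains. TDH3, the main glyceraldehyde-3-phosphate dehydrogenase gene, had −0.13 ± 0.18, with a 95% interval of −0.48 to 0.22.

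Stress and metabolic regulons lay between. Of 26 Msn2 and Msn4 stress genes 1 was lower and 0 higher, with a median of −0.34, made of 0.02 in RDY73 and 0.30 in RDY234. HOR7 of that list had −0.38 ± 0.22 (adjusted p = 0.1). Hsf1 chaperone genes stood at −0.55 (14 of 25 lower), with the Hsp90 gene HSC82 at −0.55 ± 0.19 (adjusted p = 0.00673). With reads of 1 conversion counted HSC82 did not pass (−0.17, adjusted p = 0.388). Yap1 oxidative stress genes stood at −0.54 (10 of 20), histones at −0.50 (6 of 10) and cyclins with Cdk inhibitors at −0.68 (8 of 17). Hexose transporters had a median of −0.35 over the 6 of 12 that could be tested, 1 of them lower. Relative to other genes, where 11.6% of all were higher, 15 of 26 Msn2 and Msn4 genes, 15 of 25 Hsf1 genes, 13 of 20 Yap1 genes and 8 of 10 histone genes were higher.

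Gcn4 amino-acid genes had −0.87 (23 of 40 lower, 1 higher), purine and pyrimidine genes −0.92 (14 of 24), sulfate and methionine genes −0.83 (6 of 18), and phosphate genes −0.83 (11 of 19). Nuclear genes of oxidative phosphorylation stood at −1.06 (23 of 37), ergosterol genes at −1.08 (15 of 25), mating genes at −1.29 (17 of 23) and iron genes at −1.37 (19 of 24). Within oxidative phosphorylation, QCR6 of the cytochrome bc1 complex had −0.19 ± 0.23 (adjusted p = 0.459) and ATP18 of the ATP synthase −1.63 ± 0.25 (adjusted p = 3.65e-09). In the weak-acid and drug efflux list, with a median of −0.70 (6 of 17 lower), the multidrug pump PDR5 had −0.34 ± 0.21 (adjusted p = 0.124).

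**Figure D3:**
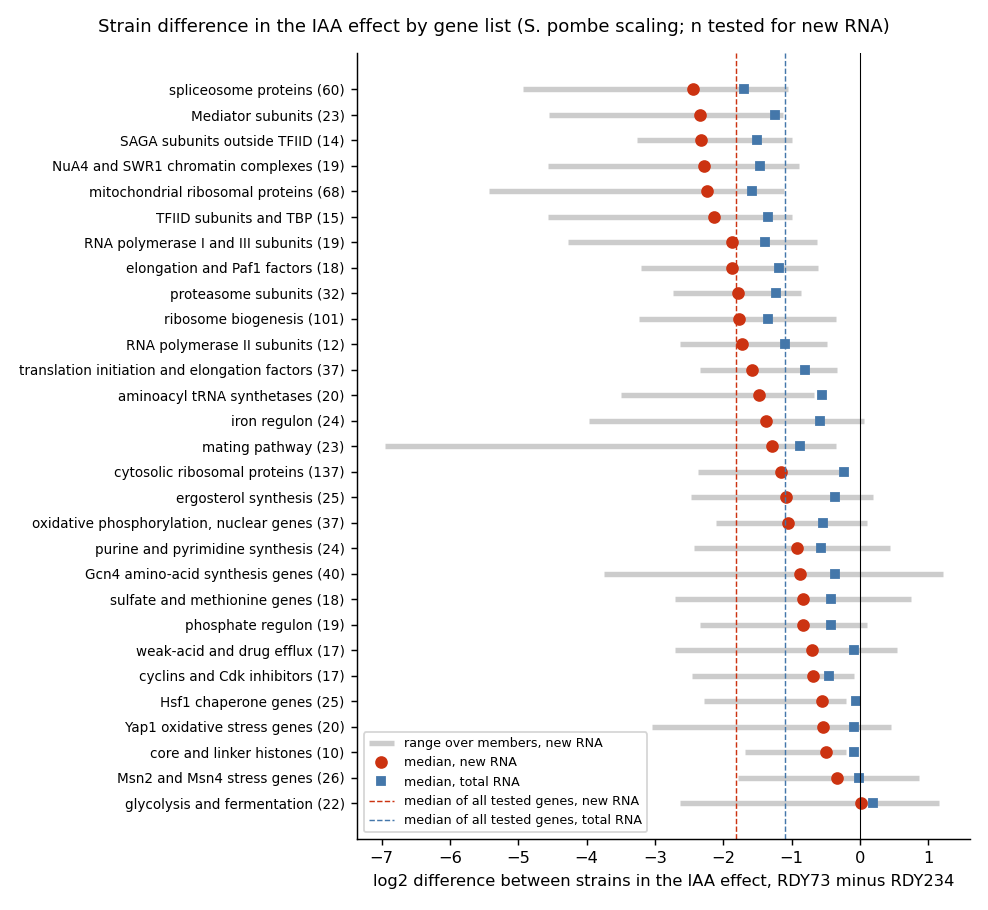
Strain difference in the IAA effect by gene list, on the S. pombe scale, with the number of genes tested for new RNA in parentheses. Grey bars span the members' lowest to highest new RNA values, red circles and blue squares are medians for new and total RNA, and dashed lines are the medians of all tested genes (−1.82 and −1.10); medians run from −2.44 for the spliceosome to 0.02 for glycolysis, and lists of under 10 tested genes are left out.

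PDR12 changed in opposite directions in the strains. It encodes a plasma-membrane pump for weak organic acids (YPL058C, chrXVI:445842-450377, minus strand), and was named because it passed in RDY234. Its scaled labelled reads were 27.4, 25.9 and 32.3 with DMSO and 21.5, 15 and 18.3 with IAA in RDY73, and 30, 35 and 52.2 and then 121, 123 and 99.7 in RDY234. Only the RDY234 libraries with IAA were high. In total RNA it rose in both strains, by 0.66 ± 0.16 in RDY73 (adjusted p = 7.68e-05) and by 2.01 ± 0.15 in RDY234 (adjusted p = 1.36e-20), with a strain difference of −1.35 ± 0.21. The strain difference in new RNA was −2.22 ± 0.41 (adjusted p = 7.54e-07), and −0.66 relative to other genes (adjusted p = 0.243).

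Total RNA carried the strain difference in smaller size. Of 6046 genes, 4246 (70.2%) were lower and 33 (0.546%) higher, with a median of −1.10, or 2.14-fold. Over S. cerevisiae genes 1238 (20.5%) were lower and 1385 (22.9%) higher. The named genes on this measure, from 3139 eligible, were CSE2, NOP19, SRN2, MGP12, YAE1 and SMX2 on the negative side (−2.82 to −2.55) and NRD1, HRP1, BTN2, SNR63, SRX1 and PCL5 on the positive side (1.46 to 0.65).

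SMX2 (YFL017W-A, chrVI:103699-103932, plus strand) encodes an Sm protein of the spliceosomal snRNPs. Its scaled total reads went from 818, 755 and 694 to 119, 173 and 126 in RDY73, and were 789, 826 and 750 with DMSO and 983, 733 and 844 with IAA in RDY234. The RDY73 libraries with IAA stood far below the other 9, which overlapped. The strain difference was −2.55 ± 0.20 in total RNA (adjusted p = 1.28e-19) and −3.30 ± 0.42 in new RNA (adjusted p = 2.29e-13).

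NOP19 of the small-subunit processome had 137, 172 and 148 and then 29.4, 18.4 and 18.4 scaled total reads in RDY73, against 251, 258 and 242 and then 269, 176 and 236 in RDY234 (−2.64 ± 0.28, adjusted p = 1.25e-13). CSE2, a Mediator subunit, had −2.82 ± 0.33 in total and −2.68 ± 0.64 in new RNA. SRN2, of the ESCRT-I sorting complex, had −2.58 ± 0.27 in total RNA, with −1.07 ± 0.66 in new RNA (adjusted p = 0.126). In RDY73 SRN2 had only 9.47, 7.61 and 9.38 scaled labelled reads with DMSO.

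NRD1 led the positive side in total RNA as well, at 1.46 ± 0.19 (adjusted p = 3.64e-10). Its scaled total reads went from 314, 314 and 333 to 896, 990 and 996 in RDY73 and from 326, 358 and 420 to 403, 332 and 467 in RDY234. The RDY73 libraries with IAA were far above the other 9. HRP1 followed at 1.12 ± 0.18 (adjusted p = 1.02e-07), and BTN2, which sorts misfolded proteins, at 0.73 ± 0.20 (adjusted p = 0.000685). In new RNA BTN2 had the opposite sign, at −0.47 ± 0.23 (adjusted p = 0.0573).

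SRX1, a sulfiredoxin, and the snoRNA SNR63 passed at 0.67 ± 0.24 (adjusted p = 0.00893) and 0.72 ± 0.25 (adjusted p = 0.00799). SRX1 missed the threshold without RDY234 DMSO replicate B (0.0978) or RDY73 DMSO replicate C (0.0651), and SNR63 without RDY234 DMSO replicate C (0.0795), each an adjusted p. PCL5, a cyclin that targets Gcn4, had 0.65 ± 0.21 (adjusted p = 0.00503). The count of 33 was 56 without RDY234 IAA replicate C.

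Lists differed in how much of the strain difference appeared in total RNA, where 70.2% of all tested genes were lower and the median was −1.10. Cytosolic ribosomal proteins had a total median of −0.24 with 24 of 137 lower, against −1.15 and 135 in new RNA. Mitochondrial ribosomal proteins had −1.58 with 68 of 68 lower, spliceosome proteins −1.70 with 59 of 61, and ribosome biogenesis genes −1.34 with 100 of 101. For aminoacyl tRNA synthetases 12 of 20 were lower in total RNA (median −0.56), and VAS1 had −0.20 ± 0.19 in total RNA against −1.48 ± 0.22 in new RNA. Glycolysis genes had a total median of 0.19, with 4 of 26 lower and 3 higher. In total RNA relative to other genes, 132 of 137 cytosolic ribosomal protein genes and 33 of 34 Msn2 and Msn4 genes were higher. Over all tested genes 22.9% were, and in the quintile with the highest RNA level 62.1%.

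**Figure D4:**
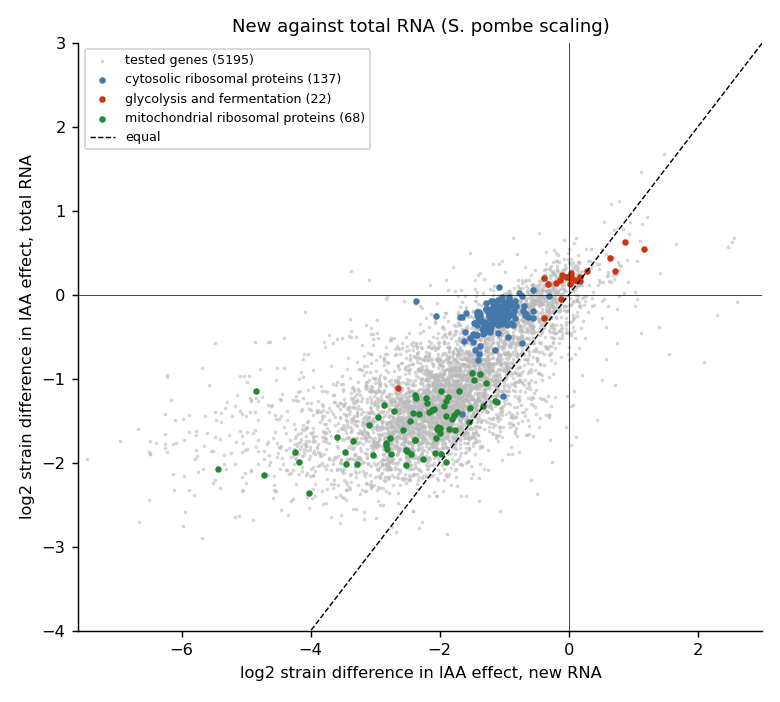
Strain difference in the IAA effect for new RNA (horizontal axis) and total RNA (vertical axis), log2, S. pombe scale, for the 5195 genes tested on both; both values come from the same libraries. Cytosolic ribosomal proteins (blue, medians −1.15 and −0.24) lie mostly above the dashed line of equal values, mitochondrial ribosomal proteins (green, −2.24 and −1.58) further down and glycolysis genes (red, 0.02 and 0.19) near the origin.

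Transcripts other than nuclear messenger RNAs had medians nearer 0. Among the 19 protein-coding genes of the mitochondrial genome, which a separate polymerase transcribes, the total RNA strain differences ran from −0.42 to 0.27 with a median of −0.09, and none passed, against 70.2% lower over all genes. Their summed scaled total reads were 41069, 41347 and 33506 with DMSO and 35001, 43578 and 31747 with IAA in RDY73, and 51488, 57005 and 50916 and then 53440, 42025 and 54797 in RDY234. The treatments overlapped in both strains. On the relative scale the same 19 genes had a median of 0.93. Their new RNA was not read further because of its background. The estimated background equalled a median of 42.6% of their labelled reads in RDY73 with IAA, against 2.45% over all tested genes.

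Small nucleolar RNAs, which guide modification of ribosomal RNA, had a median of −0.55 in new RNA, with 10 of 51 lower and 1 higher, and −0.08 in total RNA, with 4 of 76 lower and 4 higher. Spliceosomal small nuclear RNAs had a median of −0.25 in new and 0.10 in total RNA, with 0 of 6 lower. The proteins of the spliceosome and its RNAs had medians of −2.44 and −0.25 in new RNA. For transfer RNAs 19 of 67 were lower and 1 higher in new RNA (median −0.77). On the relative scale the medians of these classes were above 0, at 1.02 for small nucleolar, 1.30 for small nuclear and 0.76 for transfer RNAs in new RNA. The protocol given does not say how well such short or non-polyadenylated RNAs enter the libraries, so their reads may not stand for the mature species.

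Genes were also divided by the level of their RNA. Level was taken from the 6 control libraries without 4tU or IAA, which are not in the contrast. From the lowest to the highest quintile of level, the median strain difference in new RNA was −2.20, −2.06, −1.96, −1.75 and −1.21, while 59.9%, 74.9%, 79.6%, 80.8% and 75.7% of genes were lower. Genes of low level could be tested through RDY234 alone, so their medians rest on few RDY73 reads, and the part of this in the order of the medians was not tested. Changes relative to other genes went from −0.72 in the lowest quintile to 0.37 in the highest, where 34.2% of genes were higher. Gene length divided genes less, with medians of −1.70 in the shortest quintile and −1.85 in the longest. The 232 genes with an intron had a median of −1.38 and the 4793 without one −1.86. These groups were not matched for RNA level or for membership of the gene lists, and the part of either was not tested.

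Genes with a TATA-box match in the 250 bases before the gene start had a median nearer 0. It was −1.63 for 1717 tested genes with a match and −1.93 for 3308 without one, and 66% and 81% of them were lower. In the quintile with the highest level the medians were −0.78 (360 genes) and −1.43 (631 genes), and in the lowest quintile −2.10 (347 genes) and −2.37 (629 genes). Of the genes that were higher relative to other genes and had a promoter searched, 311 of 542 (57.4%) held a match, against 34.2% of all tested promoters and 26.5% of those that were lower. These are descriptions of letters in a window, and a match is not a bound site.

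**Figure D5:**
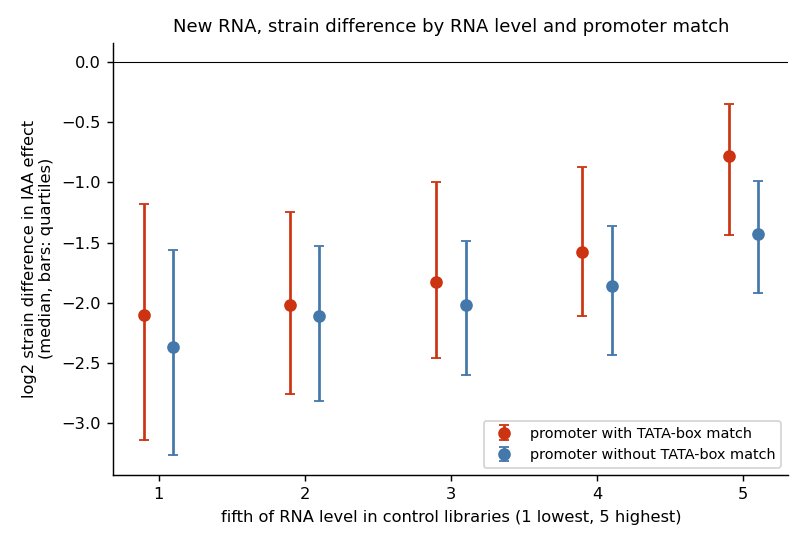
Strain difference in the IAA effect on new RNA (log2, S. pombe scale) in quintiles of RNA level in the control libraries, for genes with (red) and without (blue) a TATA-box match in 250 bases before the gene start. Points are medians and bars span the quartiles; the medians of the quintile of highest level are −0.78 and −1.43.

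Other motifs were searched on both strands. Medians with and without a match were −1.85 and −1.84 for the Reb1 motif TTACCCG, held by 7.04% of all promoters, −1.93 and −1.83 for the PAC element GCGATGAG of ribosome biogenesis genes (3.84%), and −1.70 and −1.85 for the Gcn4 motif TGACTC (6.26%). The Msn2/4 motif AGGGG (18.8%) gave −1.71 and −1.87. Genes with the Hsf1 motif, a run of inverted GAA repeats held by 0.751% of all promoters, had a median of −1.10 over 41 tested genes against −1.85 without it.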

How the data were processed

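SLAM-seq reports new RNA through T-to-C conversions at 4tU. The deposited counts per gene window (all reads, and reads with at least 2 conversions) were made by the authors with slamdunk 0.4.3, per the file headers, after fastp 0.23.2, on builds R64 and ASM294v2, per the submitters' processing notes. Of 6465 S. cerevisiae windows, 6462 matched an R64 gene, and 6461 end 250 bases downstream of it. Such windows span the gene and the 250 bases after it, and 1316 overlap another on the same strand.

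Genes with at least 10 reads in 3 of the 12 libraries were fitted with edgeR 4.0.16 in R 4.3.3 (quasi-likelihood F test, Benjamini-Hochberg adjusted p under 0.05), over 4 group means. Library sizes came from summed S. pombe reads, labelled reads for new RNA and all reads for total RNA, or from TMM (trimmed mean of M-values) over S. cerevisiae genes. An SE is the absolute log2 value over the square root of F, and intervals cover the fit's error only. The S. pombe sums depend on few windows, since 1 noncoding window held 19.7% to 28.3% of labelled S. pombe reads. Its share differed by strain, at 19.7% to 22.9% in RDY73 and 22.8% to 28.3% in RDY234. Of all S. pombe reads it held 4.66% to 6.3% in RDY73 and 10.3% to 17.1% in RDY234. The test was also run on simulated counts. No outcome of that run is given here, and no conclusion is drawn from it, including for genes with few labelled reads.

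Members and gene lists were chosen with earlier results of these data known. Genes were named by fixed ranks of the strain difference among genes past the level, overlap and multimapping limits (at most 10% multimapped), plus listed examples per gene list. PDR12 and all 12 higher genes were named after their values were seen. Alternatives covered scaling, DESeq2 1.42.0, filters, conversion threshold, background, overlaps, a replicate block and each library left out. The replicate letters showed no pairing from gene to gene: correlations of deviations ran from −0.044 to 0.027 for new RNA and from −0.091 to 0.075 for total RNA. Each library was first divided by its own read sum, so a shift shared by all genes of a letter could not be seen.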

Additional observations from a re-analysis of the deposited data

Results flagged for a closer look

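Each count below was flagged because the test of the difference itself found unlike effects of IAA in RDY73 and RDY234. For new RNA on the S. pombe scale the effect was lower in RDY73 for 3854 genes and higher for 12. Relative to S. cerevisiae genes it was lower for 347 and higher for 603. For total RNA it was lower for 4246 and higher for 33 on the S. pombe scale, and lower for 1238 and higher for 1385 relative to S. cerevisiae genes. Beside these counts stands the gap between the strains with DMSO, whose part was not tested. Its median on the S. pombe scale was −1.13 in new RNA and −0.64 in total RNA. Relative to S. cerevisiae genes the medians were −0.01 and −0.02.

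PDR12 was flagged because its new RNA passed in opposite directions, at −0.66 in RDY73 (adjusted p = 0.0497) and 1.56 in RDY234, with a strain difference of −2.22 (edgeR). Relative to other genes both effects were positive, at 1.03 and 1.70.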

How the results depend on the processing

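Scaling mattered most. With TMM over S. cerevisiae genes in place of S. pombe reads, new RNA gave 347 lower and 603 higher genes against 3854 and 12, and total RNA 1238 and 1385 against 4246 and 33. That scaling shifted the median of all genes from −1.82 to −0.27 and gave the opposite sign for 27 named genes that had passed on the S. pombe scale. Named genes that had not passed, such as PDC1 and TDH3, also changed sign. The 27 were SPT15 0.13, RPO21 0.49, RPA34 0.16, SWR1 0.32, RPL41A 0.65, RPL29 0.61, RLP7 0.06, YEF3 0.93, VAS1 0.10, KRS1 0.92, HSC82 1.04, ILV5 1.12, ASN1 0.69, CYS4 0.89, IMD3 0.44, ERG11 0.78, RPN1 0.13, SNU13 0.52, HHF2 1.19, HHT1 0.99, MF(ALPHA)1 0.55, MF(ALPHA)2 0.48, OYE2 1.15, AHP1 0.94, FTR1 0.37, FET3 0.50 and VTC1 0.72.

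With at least 10 reads in every library, which tests fewer genes, new RNA gave 781 lower and 7 higher on the S. pombe scale and 199 and 195 on the relative one. Counting reads with 1 conversion gave 20 higher on the S. pombe scale, and 658 lower and 1025 higher on the relative one. The cause was not tested. Leaving out overlapping windows left 7 higher. With each library left out in turn, new RNA gave 3530 to 3764 lower and 5 to 14 higher, and total RNA 4045 to 4384 lower and 23 to 56 higher. DESeq2 gave 3722 lower and 10 higher for new RNA. Leaving multimapped and ribosomal windows out of the S. pombe sum, chosen after seeing the data, gave 3794 and 12.

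With the letter as a replicate block the counts were 3783 lower and 10 higher for new RNA, 305 and 580 on the relative scale, 4205 and 30 for total RNA, and 1223 and 1380 on its relative scale. Besides the leave-one-out fits, ENO1 missed the threshold with no filter (adjusted p = 0.0518), with background subtracted (0.0543) and with the replicate block (0.0539), by edgeR. Background was subtracted from S. cerevisiae counts only. Depth limits the most lowered genes, which have a few labelled reads per RDY73 library with IAA.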
